A study of Rattus norvegicus with 28 samples.

Results

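The circadian clock genes followed here were 10 genes of the transcriptional clock: Clock, Per1, Per2, Per3, Cry1, Cry2, Nr1d1, Nr1d2, Dbp and Bhlhe40. They were taken by name from a gene expression array, through the transcript accession given for each probe, and not by a cutoff on a measured value. The list of names was chosen with earlier results of these data known. Of the 30367 probes on the array, 15 belonged to these genes, and 9 of the 15, from 7 genes, entered the tests. The tested probe of each of the 7 genes was above background on all 14 arrays, so none of them entered through a single group. The other 3 genes, Clock, Per1 and Nr1d2, had no probe that was above background throughout any group and are given as limits only.

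RNA was measured in the whole hippocampus of adult male Sprague-Dawley rats 24 h after sham surgery or a fluid percussion traumatic brain injury (TBI), with 1 rat per array. There were 2 Sham arrays and 3 each of TBI without a drug, TBI+Imipramine, TBI+Prozac and TBI+Zoloft, where Prozac is fluoxetine and Zoloft is sertraline, both selective serotonin reuptake inhibitors, and imipramine is a tricyclic antidepressant. Each drug was given once, 1 h after the injury, and no group here received a drug after sham surgery. By the methods, rats without a drug received vehicle. All rats were kept on a light-dark cycle, and the clock hour at which each rat was injured or killed is not given in the sources used here.

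In the mammalian clock, CLOCK pairs with BMAL1 and switches on genes through E-box sequences, among them the Per, Cry, Nr1d, Dbp and Bhlhe40 genes. PER and CRY proteins then accumulate and block that pair, which closes a daily loop. NR1D1 and NR1D2 (the REV-ERB proteins) repress Bmal1, while DBP carries the rhythm to output genes through D-box sequences and BHLHE40 (DEC1) competes at E-boxes. The hippocampus runs such a clock of its own, and the transcripts cycle over the day, so that each value below is a single time point of a cycling gene.

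The promoters of Per3 and Per2 are shown because these were the clock genes with a called difference. Both windows are the 250 bases before the RefSeq start of the gene, 5′ to 3′, from build GRCr8, Per3 at chr5:166777801-166778050 and Per2 at chr9:99496994-99497243, both on the minus strand. Capitals mark a match to 1 of 6 motifs that were searched on both strands: the E-box CACGTG, the noncanonical E-box CACGTT, the D-box forms TTATGTAA and TTATGCAA, the cAMP response element TGACGTCA and the REV-ERB/ROR core motif AGGTCA.
Per3: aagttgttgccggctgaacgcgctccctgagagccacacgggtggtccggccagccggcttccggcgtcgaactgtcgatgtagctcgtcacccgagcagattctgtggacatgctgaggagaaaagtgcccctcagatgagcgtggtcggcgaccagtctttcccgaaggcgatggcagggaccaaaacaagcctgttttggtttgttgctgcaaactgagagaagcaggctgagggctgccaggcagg
Per2: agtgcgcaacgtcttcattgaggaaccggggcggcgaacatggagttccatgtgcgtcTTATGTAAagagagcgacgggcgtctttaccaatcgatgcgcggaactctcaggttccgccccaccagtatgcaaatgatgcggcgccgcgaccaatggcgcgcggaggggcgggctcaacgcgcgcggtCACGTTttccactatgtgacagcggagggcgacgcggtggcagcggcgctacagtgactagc
Per2 held TTATGTAA starting 192 bases and CACGTT starting 62 bases before the gene start, and the Per3 window held none of the 6 motifs. The reference table had 11 promoter entries for 9 of the 10 genes and none for Cry1. CACGTG was found for Bhlhe40 and Nr1d1, CACGTT for Cry2, Nr1d1 and Per2, and AGGTCA for Nr1d2, while TTATGCAA and TGACGTCA were not found. Of all 33469 entries in the table, 5.59% held CACGTG, 4.07% CACGTT, 0.828% TTATGTAA, 0.789% TTATGCAA, 1.59% TGACGTCA and 14.1% AGGTCA. In all, 6 of the 11 clock entries, from 5 genes, held at least 1 motif, against 24.6% of the table. G and C made up 60% of the Per3 window and 62% of the Per2 window, against a median of 51.2% over all windows. The shares were not matched for base content. A match is a run of letters and not a bound site.

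Levels are given as log2 of the processed signal relative to the 75th percentile of detected probes on the same array, so 0 is the level of that percentile, a step of 1 is a doubling, and the levels of different probes cannot be compared. A difference was called when its limma p, adjusted by Benjamini-Hochberg over all 17322 tested probes, was under 0.05. In bulk tissue, fewer cells of a type and less RNA per cell cannot be told apart. The p-values measure the spread between these rats.

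Arrays detected between 14676 and 18196 of the 30367 probes, the fewest on TBI replicate 1. That array was the highest or lowest of the 14 for 37% of the 17251 probes measured on every array, and for 4 of the 7 clock genes. TBI+Zoloft replicate 3 was at an extreme for 25.5% of probes and for 3 of the 7 clock genes. The 2 Sham arrays were at an extreme for 22.5% and 24.1% of probes and for 1 of the 7 clock genes each. Their mean correlations with the other arrays, most of them from injured rats, were the lowest of the 14 (0.961 and 0.966). The Sham arrays were alone on their slide and scan day, so injury and slide cannot be told apart. The TBI arrays shared a slide with TBI+Prozac replicate 1 only, and the other 8 drug arrays were on another slide, so a drug effect and a slide effect are nearly confounded too. The median difference over all tested probes was 0.20 for TBI+Imipramine and 0.15 for TBI+Prozac against TBI, and 0.18 and 0.14 against Sham. Some values of these groups are therefore also given relative to that shift.

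**Figure D1:**
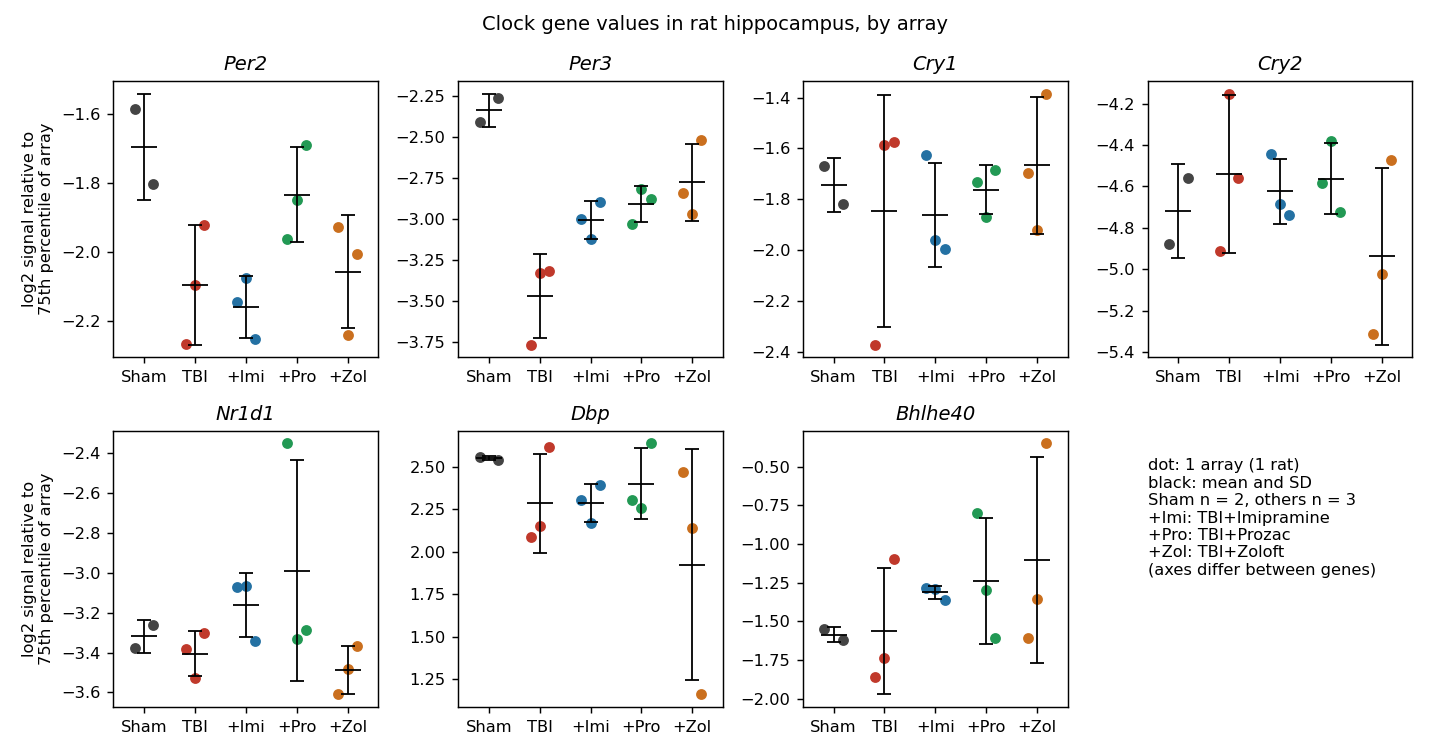
Level of the 7 detected clock genes on each of the 14 arrays (log2, relative to the 75th percentile of detected probes of the array), by group, with points for arrays and black marks for the group mean and SD (n = 2 in Sham, n = 3 elsewhere). Per3 is highest on both Sham arrays (-2.41 and -2.26) and lowest on the 3 TBI arrays (-3.77 to -3.32), and Dbp is lowest on TBI+Zoloft replicate 3 (1.16).

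The largest called difference among the clock genes was in Per3. After injury Per3, a Period gene often counted as a modulator of the loop rather than a core repressor, was 2.2-fold lower than in Sham, and in each drug group it lay between TBI and Sham. Per2 was lower on all injured arrays but 1 than on both Sham arrays and was called in 1 of the 4 injured groups. No difference was called for Cry1, Cry2, Nr1d1, Dbp or Bhlhe40 in any comparison. Between injured rats with and without a drug no clock gene was called.

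In TBI vs. Sham, 1 of the 7 clock genes was called, when 16.6% of all tested probes were. The median difference over the 7 genes was -0.10, against 0.00 over all tested probes. The groups did not overlap for 2 of the 7, Per2 and Per3, as for 42.2% of all probes. Read against that background, the count was not high, and the finding is about Per3 itself.

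Clock, which encodes a partner in the activating pair, was near the detection limit. Its brighter probe was above background on 0 of 2 Sham arrays and 5 of 12 injured arrays, with processed signals of 10.07 to 40.83, and its other probe on none, with 3.493 to 9.332. For comparison, the dimmest probe called above background read 15.2 to 43.2, depending on the array. No fold is given for Clock.

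The Period genes encode the PER repressors. Per1, the Period gene that responds fastest to light, glucocorticoids and neuronal activity, was above background on none of the 14 arrays by its only probe, with signals of 5.944 to 23.35, so its response cannot be read from these arrays.

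Per2 (probe A_42_P708593), a core repressor, read -1.59 and -1.80 on the Sham arrays, -2.27, -2.10 and -1.92 in TBI, -2.15, -2.08 and -2.25 in TBI+Imipramine, -1.96, -1.85 and -1.69 in TBI+Prozac, and -1.93, -2.24 and -2.01 in TBI+Zoloft. All injured arrays except TBI+Prozac replicate 3 lay below both Sham arrays. The TBI difference was -0.40 (SE 0.15, 95% interval -0.73 to -0.07), with adjusted p = 0.0946, so it was not called. It was called under quantile normalization (-0.43, adjusted p = 0.0122), under a percentile taken over all probes (adjusted p = 0.0117) and in the series table of processed values (adjusted p = 0.0127). These 3 settings gave similar numbers of calls over all probes (4329, 4446 and 4392), so they do not count as separate support. TBI+Imipramine was lower than Sham by -0.46 (SE 0.15, adjusted p = 0.0448), which is -0.65 from the median probe. That call was lost in 9 of the 14 fits that leave out 1 array: without Sham replicate 1 or 2 (adjusted p = 0.259 and 0.0830), TBI replicate 2 (0.0591), any TBI+Imipramine array (0.0824 to 0.101) or any TBI+Prozac array (0.0514 to 0.0605). TBI+Zoloft differed from Sham by -0.36 (adjusted p = 0.182) and TBI+Prozac by -0.14 (adjusted p = 0.586), and both were called under the same 3 other scalings (-0.41 to -0.39 and -0.34 to -0.33). Relative to the median probe the TBI+Prozac difference was -0.28. Over the 4 injured groups the mean difference from Sham was -0.34 (SE 0.13, adjusted p = 0.0770), and under the 3 other scalings it was -0.47 and called.

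Per3 (probe A_64_P119407) read -2.41 and -2.26 on the Sham arrays, -3.77, -3.33 and -3.32 in TBI, -3.00, -3.12 and -2.89 in TBI+Imipramine, -3.03, -2.82 and -2.88 in TBI+Prozac, and -2.84, -2.97 and -2.52 in TBI+Zoloft. The 3 TBI arrays were the lowest of all 14, the Sham arrays the highest, and the 9 drug arrays lay between them without overlap on either side. Groups without overlap were common: in TBI+Imipramine, TBI+Prozac and TBI+Zoloft vs. Sham they were 59.5%, 52.2% and 38.2% of all probes and 4, 1 and 3 of the 7 clock genes, and vs. TBI 25.8%, 15.1% and 15.3% of probes and 1 of the 7 each, Per3. All 12 injured arrays lay on 1 side of Sham for 19.6% of probes and, of the clock genes, for Per3. As means the levels were -2.34 ± 0.10 in Sham (SD, n = 2), -2.78 ± 0.23 in TBI+Zoloft, -2.91 ± 0.11 in TBI+Prozac, -3.01 ± 0.11 in TBI+Imipramine and -3.47 ± 0.26 in TBI (SD, n = 3 each). No neighbouring pair in that order differed at the threshold. The ends did: Per3 was 1.14 log2 units lower in TBI than in Sham (difference -1.14, SE 0.18, 95% interval -1.52 to -0.76, adjusted p = 0.00142). Without TBI replicate 1 the difference was -0.99 (adjusted p = 0.00355), and the call held in all 14 fits that leave out 1 array (-1.21 to -0.99). It was lost in 1 of 12 other settings, the methods' t-test after Benjamini-Hochberg adjustment (adjusted p = 0.194). The other 2 Per3 probes were above background on 6 and 2 of the 14 arrays and were not tested.

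Against Sham, Per3 was also lower in TBI+Imipramine by -0.67 (SE 0.18, adjusted p = 0.0168) and in TBI+Prozac by -0.57 (SE 0.18, adjusted p = 0.0455), and in TBI+Zoloft the difference of -0.44 was not called (adjusted p = 0.160). Relative to the median probe, Per3 was -0.85 in TBI+Imipramine, -0.72 in TBI+Prozac and -0.44 in TBI+Zoloft. In TBI+Imipramine vs. Sham the clock genes had 2 of 7 called, Per2 and Per3, against 23.4% of all probes, in TBI+Prozac vs. Sham 1 of 7 against 14.9%, and in TBI+Zoloft vs. Sham 0 of 7 against 5.95% (2 of 7 at an unadjusted p under 0.05, against 22.3%). The TBI+Imipramine call on Per3 was lost without Sham replicate 1 (adjusted p = 0.0584), Sham replicate 2 (0.119) or TBI+Imipramine replicate 2 (0.0664). The TBI+Prozac call was lost in 10 of the 14 such fits: without either Sham array (0.126 and 0.237), any TBI+Prozac array (0.0626 to 0.137), any TBI+Imipramine array (0.0542 to 0.0663), TBI replicate 2 (0.0538) or TBI+Zoloft replicate 1 (0.0574). Over the 4 injured groups together Per3 was lower than in Sham by -0.71 (SE 0.15, adjusted p = 0.00597), the 1 clock gene of 7 called when 20.4% of probes were, and without Sham replicate 2 that call was lost (-0.63, adjusted p = 0.0902). All these comparisons share the 2 Sham arrays.

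**Figure D2:**
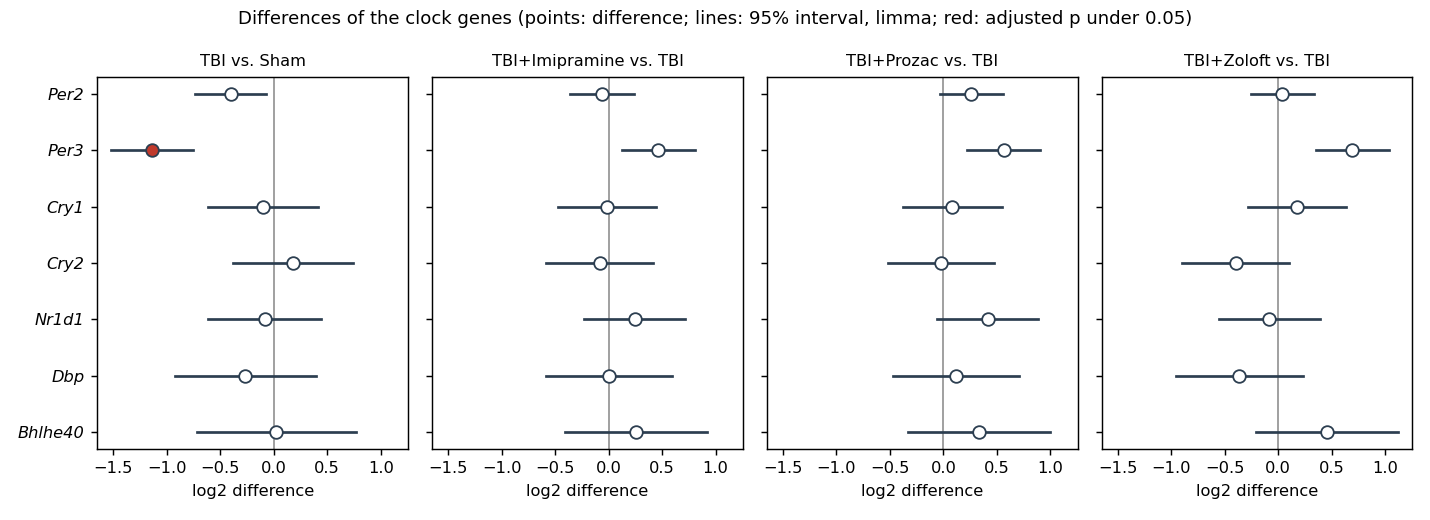
Log2 differences of the 7 detected clock genes in TBI vs. Sham and in each drug group vs. TBI, with points for the fitted difference (red where called) and lines for its 95% interval. The Per3 difference in TBI vs. Sham (-1.14) stands clear of 0, and the 3 drug groups vs. TBI lie above 0 for Per3 (0.47, 0.56 and 0.70).

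Against TBI, Per3 was higher on every drug array than on every TBI array, and none of the 3 differences passed the threshold. TBI+Imipramine differed from TBI by 0.47 (95% interval 0.13 to 0.81, adjusted p = 0.135), or 0.27 relative to the median probe. TBI+Prozac differed by 0.56 (0.22 to 0.90, adjusted p = 0.320), or 0.42 relative to the median probe. TBI+Zoloft differed by 0.70 (0.35 to 1.04, adjusted p = 0.0531), or 0.68 relative to the median probe. The 3 comparisons share the TBI arrays. No clock gene was called in any of them, against 2.85% of probes for TBI+Imipramine, 0.00577% for TBI+Prozac and 1.38% for TBI+Zoloft. At an unadjusted p under 0.05 the count was 1 of 7 in each, Per3 every time, when 19.7%, 10.1% and 15.2% of probes passed.

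The TBI+Zoloft difference in Per3 sat at the edge of the threshold. Of 13 other settings, 7 called it, among them quantile normalization (0.68, adjusted p = 0.0287), slide as a random block (0.71, adjusted p = 0.0205) and the replicate number as a block (adjusted p = 0.0479), and 1 of the 7 was the methods' t-test without adjustment. With slide as a fixed block it was 0.51 with adjusted p = 0.998, and TBI+Prozac was then 0.44 and TBI+Imipramine 0.28. Leaving out 1 array gave 0.55 to 0.79, none called, with 0.55 without TBI replicate 1 (adjusted p = 0.122) and 0.57 without TBI+Zoloft replicate 3 (adjusted p = 0.167). On the slide that held the TBI arrays, TBI+Prozac replicate 1 was 0.44 above the TBI mean, a single array with no error of its own.

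**Figure D3:**
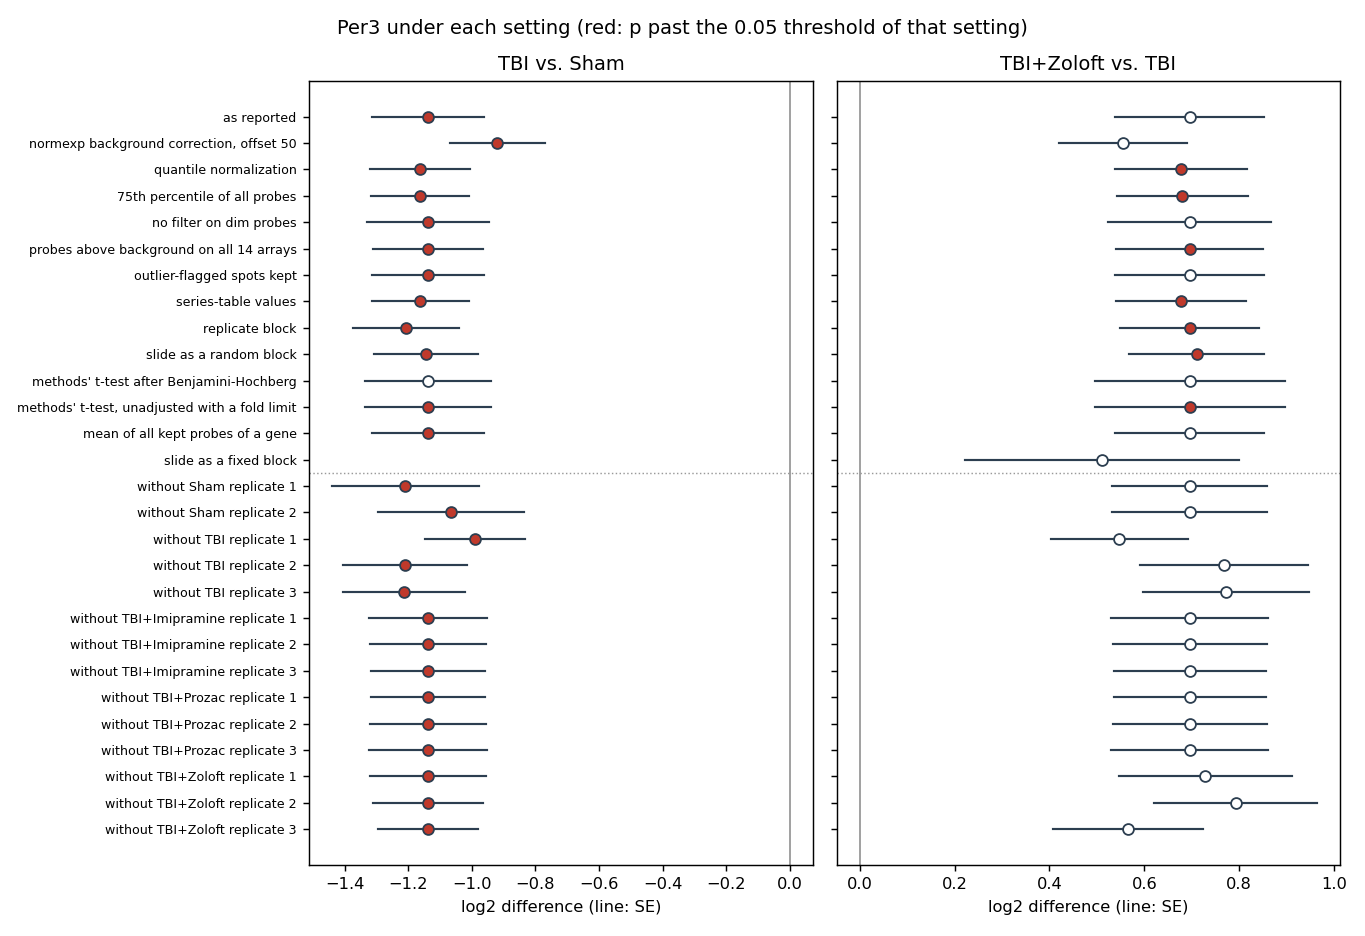
Per3 difference in TBI vs. Sham and in TBI+Zoloft vs. TBI under each way of processing the arrays, with points for the log2 difference, lines for its SE and red for differences past the threshold. TBI vs. Sham stays between -1.21 and -0.92, while TBI+Zoloft vs. TBI crosses the threshold in 7 of 13 alternatives.

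The 3 drugs were compared with each other in 3 pairs. Per3 differed by -0.10 between TBI+Imipramine and TBI+Prozac (95% interval -0.44 to 0.24), by -0.23 between TBI+Imipramine and TBI+Zoloft (-0.57 to 0.11) and by -0.13 between TBI+Prozac and TBI+Zoloft (-0.47 to 0.21), with adjusted p from 0.406 to 0.950. Over all tested probes the median difference was 0.06, 0.18 and 0.11 in the same pairs. Relative to the median probe, the Per3 differences were -0.16, -0.41 and -0.25. For Per2, TBI+Imipramine lay below all TBI+Prozac arrays without overlap, by -0.33 (95% interval -0.62 to -0.03), with adjusted p = 0.720, a separation seen for 17.3% of probes. Relative to the median probe that Per2 difference was -0.38. No clock gene was called by limma in any pair, against 0.00577%, 5.29% and 3.69% of probes in the same order, and none in a test for any difference among the 3 drugs, against 3.18%. At an unadjusted p under 0.05 the counts were 1, 0 and 1 of 7 in the pairs and 0 of 7 in the joint test, against 6.91%, 23.6%, 21% and 22.5% of probes. These intervals still allow differences of up to about the size seen against TBI, so the drugs are not shown to act alike.

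The Cry genes encode the partners of PER in repression, and no difference was called for either. Cry1 ran from -1.998 to -1.38 on 13 arrays and was -2.37 on TBI replicate 1. Its TBI vs. Sham difference was -0.10 (adjusted p = 0.818) and 0.16 without that array (adjusted p = 0.573). Cry2, the dimmer probe, ran from -5.32 on TBI+Zoloft replicate 1 to -4.15 on TBI replicate 2, and its TBI vs. Sham difference was 0.18 (SE 0.26, adjusted p = 0.685). In TBI+Zoloft vs. TBI, Cry2 differed by -0.40 (SE 0.23, adjusted p = 0.453), and by -0.63 without TBI+Zoloft replicate 3 (adjusted p = 0.237).

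Nr1d1 and Nr1d2 encode the REV-ERB repressors. Nr1d2 was above background on 0 of 14 arrays, with signals of 3.395 to 15.22. Nr1d1 read -3.38 and -3.26 in Sham, -3.38, -3.53 and -3.30 in TBI, -3.07, -3.07 and -3.34 in TBI+Imipramine, -2.35, -3.33 and -3.29 in TBI+Prozac, and -3.61, -3.48 and -3.37 in TBI+Zoloft. A single array, TBI+Prozac replicate 1, stood well above the others, which ran from -3.61 to -3.07. The TBI+Prozac vs. TBI difference was 0.41 (SE 0.22, adjusted p = 0.554), and 0.09 without that array. With slide as a fixed block, where that array carries the comparison, it was 1.05 (adjusted p = 0.132). TBI vs. Sham gave -0.09 (SE 0.24, adjusted p = 0.849).

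Dbp, an output regulator of the clock, was measured by 3 probes. Its brightest probe read 2.56 and 2.54 in Sham, 2.08, 2.15 and 2.61 in TBI, 2.30, 2.17 and 2.39 in TBI+Imipramine, 2.30, 2.26 and 2.64 in TBI+Prozac, and 2.47, 2.14 and 1.16 in TBI+Zoloft. TBI+Zoloft replicate 3 was the lowest array on all 3 probes, at 1.16, 0.05 and -0.79, and the other 13 arrays stayed within 2.08 to 2.64 on the brightest. TBI vs. Sham differed by -0.27 (SE 0.30, adjusted p = 0.600), and by -0.31 and -0.57 on the other probes, neither called. TBI+Zoloft vs. Sham differed by -0.63 (adjusted p = 0.247), and by -0.80 (adjusted p = 0.136) and -1.17 (adjusted p = 0.0698) on the other probes. Without TBI+Zoloft replicate 3 these were -0.25, -0.41 and -0.71. Against TBI, TBI+Zoloft was -0.36 (SE 0.27, adjusted p = 0.581), 0.02 without that array and -0.63 without TBI+Zoloft replicate 1.

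Bhlhe40, a repressor at E-boxes that also responds to activity and hypoxia, had the largest error of the 7 genes in the fit, with arrays of 1 group far apart. It read -1.55 and -1.62 in Sham, -1.86, -1.74 and -1.10 in TBI, -1.29, -1.29 and -1.36 in TBI+Imipramine, -0.80, -1.30 and -1.61 in TBI+Prozac, and -1.61, -1.36 and -0.35 in TBI+Zoloft. TBI+Zoloft replicate 3 was the highest array and TBI+Prozac replicate 1 the next. TBI vs. Sham was 0.02 (SE 0.34, adjusted p = 0.973). TBI+Zoloft vs. TBI was 0.46 (SE 0.31, adjusted p = 0.523), 0.08 without TBI+Zoloft replicate 3 and 0.71 without TBI+Zoloft replicate 1.

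**Figure D4:**
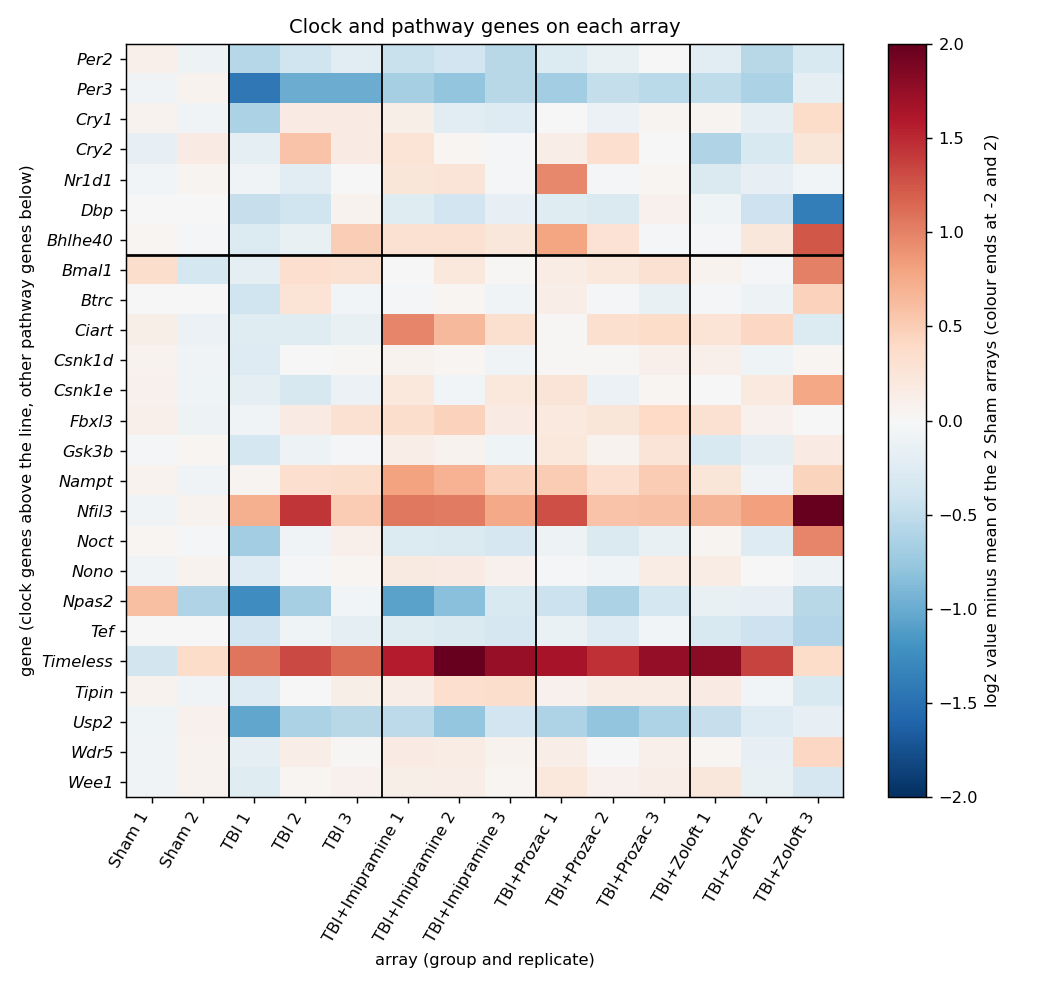
Clock genes and further clock pathway genes (rows) on the 14 arrays (columns), as log2 level minus the mean of the 2 Sham arrays, with colours running from -2 to 2. TBI+Zoloft replicate 3 stands out as low for Dbp and high for Bhlhe40 and Nfil3, and Per3 and Usp2 are below Sham on all 12 injured arrays.

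Of 26 further genes of the clock pathway, 20 had a probe and 18 were tested. In TBI vs. Sham 1 fell, against 8.32% of all probes, and 1 was called higher, against 8.3%, a gene that was not above background on 1 Sham array and entered the tests through the injured groups. Usp2, a deubiquitinase that acts on clock proteins, read 1.02 and 1.18 in Sham and 0.06 to 0.55 in TBI, without overlap, and fell by 0.74 (SE 0.17, adjusted p = 0.0133). The Usp2 call was lost without Sham replicate 1 (adjusted p = 0.0517) or Sham replicate 2 (0.108). Timeless, whose protein works mainly at replication forks in mammals, read -6.36 and -5.62 in Sham, where 1 of 2 arrays was above background, and -4.93 to -4.68 in TBI. The Timeless difference was 1.17 (SE 0.34, adjusted p = 0.0365), with 0.17 under normexp background correction (adjusted p = 0.558) and 0.80 without Sham replicate 1 (adjusted p = 0.268). The Timeless call was also lost without any 1 of the TBI arrays (adjusted p = 0.0557 to 0.0995).

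Against TBI, 1 of the 18 was called in TBI+Imipramine, against 2.85% of probes, and none in TBI+Prozac or TBI+Zoloft, where 2 each had an unadjusted limma p under 0.05, against 10.1% and 15.2%. Ciart, which encodes a repressor of the CLOCK pair also known as CHRONO, read -4.55, -4.56 and -4.47 in TBI and -3.33, -3.66 and -3.99 in TBI+Imipramine. The Ciart difference was 0.87 (SE 0.20, adjusted p = 0.0394), or 0.67 relative to the median probe. It was lost in 8 of 13 other settings, among them quantile normalization (0.57, adjusted p = 0.246), and in 9 of the 14 fits without 1 array: either Sham array (0.0526 each), any TBI array (0.0625 to 0.138), TBI+Imipramine replicate 1 or 2 (0.176 and 0.144), TBI+Prozac replicate 2 (0.0595) or TBI+Zoloft replicate 1 (0.0512). Against Sham, Usp2 was lower in TBI+Imipramine and TBI+Prozac (-0.57 and -0.67), and Nampt, the enzyme of NAD salvage whose transcript follows the clock, was higher in TBI+Imipramine (0.66, adjusted p = 0.0167). The Nampt difference was 0.47 relative to the median probe, and 0.30 and not called with normexp background correction (adjusted p = 0.143). Timeless, above background on 1 of the 2 Sham arrays, was called at 1.80 in TBI+Imipramine and 1.62 in TBI+Prozac, and with normexp these were 0.50 and 0.38 and neither was called (adjusted p = 0.0600 and 0.186). These calls also share the Sham arrays: the Nampt call and both Usp2 calls were lost without either of them (Nampt adjusted p = 0.0582 and 0.120, Usp2 0.0818 to 0.197), and the Timeless call in TBI+Prozac without Sham replicate 1 (0.105). The Nampt call and the Usp2 call in TBI+Imipramine were also lost without TBI+Imipramine replicate 1 or 2 (Nampt 0.0662 and 0.0568, Usp2 0.0762 and 0.129), and the Usp2 call in TBI+Prozac without any 1 of its own arrays (0.0516 to 0.0603). Nfil3, a D-box repressor opposed to DBP, gave 0.88 (SE 0.44, adjusted p = 0.197) and Npas2, which can replace CLOCK, -0.65 (SE 0.37, adjusted p = 0.263) in TBI vs. Sham. The Npas2 value rested on single arrays, with -0.05 without Sham replicate 1, -1.26 without Sham replicate 2 and -0.36 without TBI replicate 1. Csnk1e, a kinase of PER proteins, gave 0.53 in TBI+Zoloft vs. TBI on its brightest probe (adjusted p = 0.1795), 0.31 without TBI+Zoloft replicate 3, and -0.16 and 0.15 on its other tested probes. TBI+Zoloft replicate 3 was the highest array for Nfil3 (-1.29) and for Bmal1 (-0.87), and without it Nfil3 in TBI vs. Sham was called (0.88, adjusted p = 0.0438).

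Glucocorticoids and neuronal activity are the classical inducers of Per1, and lists of genes tied to these signals were read as well. They do not stand in for Per1, which was not detected. Of 7 glucocorticoid targets 5 were tested, and 1 fell in TBI vs. Sham, against 8.32% of all probes: Tsc22d3 (GILZ), at 1.35 and 1.43 in Sham and 0.26 to 0.78 in TBI, fell by 0.87 (SE 0.19, adjusted p = 0.00899), a call lost without Sham replicate 2 (adjusted p = 0.0699). Fkbp5, a chaperone of the glucocorticoid receptor, gave -0.72 (adjusted p = 0.0713), and the receptor gene Nr3c1 gave -0.74 (adjusted p = 0.313). The Fkbp5 difference was called without TBI+Zoloft replicate 1 (adjusted p = 0.0135) or replicate 3 (0.0312). In TBI+Zoloft vs. TBI none was called by limma and 4 of 5 had an unadjusted p under 0.05, against 15.2% of probes, with Fkbp5 at 0.83 (adjusted p = 0.0878), the kinase gene Sgk1 at 0.83 (adjusted p = 0.135) and Errfi1 at 0.60 (adjusted p = 0.265). Without TBI+Zoloft replicate 3 Errfi1 was 0.29, and Sgk1 was 0.535 without TBI replicate 3. The Fkbp5 difference there was 1.14 and called without TBI+Zoloft replicate 1 (adjusted p = 0.0390). In TBI+Imipramine and TBI+Prozac vs. TBI, 0 of the 5 were called, against 2.85% and 0.00577% of probes. At an unadjusted limma p under 0.05 the count was also 0 of 5 in both, against 19.7% and 10.1% of probes. Against Sham, 1, 1 and 0 of the 5 were called in TBI+Imipramine, TBI+Prozac and TBI+Zoloft, against 23.4%, 14.9% and 5.95% of probes. The called gene was Tsc22d3, lower in both groups. Of 12 other settings, 12 called it in TBI+Imipramine (-0.97 to -0.60) and 8 in TBI+Prozac (-0.86 to -0.56). Both comparisons share the Sham arrays.

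Of 8 activity and CREB targets 6 were tested, and 1 fell in TBI vs. Sham, against 8.32% of all probes. Nr4a1, an immediate early gene of the nuclear receptor family, read -0.58 and -0.55 in Sham and -1.44 to -1.30 in TBI and fell by 0.83 (SE 0.17, adjusted p = 0.00603), a call that held in every fit without 1 array. Fos gave 1.32 (adjusted p = 0.231), Arc -0.86 (adjusted p = 0.424) and Crem 0.64 (adjusted p = 0.125). Egr1, which was above background on 1 of 3 TBI arrays and both Sham arrays, gave -1.001 (adjusted p = 0.194), and -0.58 with normexp background correction. Without TBI+Zoloft replicate 3, which was the highest array for Arc (2.07), Crem and Arc were called as well (adjusted p = 0.0330 and 0.0319), and so was Egr1 with the same limit on its TBI level (adjusted p = 0.0126). None of the 6 was called by limma in TBI+Imipramine, TBI+Prozac or TBI+Zoloft vs. TBI, against 2.85%, 0.00577% and 1.38% of probes. At an unadjusted p under 0.05 the counts were 0, 1 and 1 in the same order, against 19.7%, 10.1% and 15.2% of probes. Against Sham, 2, 0 and 0 of the 6 were called in the same groups, against 23.4%, 14.9% and 5.95% of probes. In TBI+Imipramine Crem was higher, by 0.68 to 1.02 in 12 other settings, of which 10 called it. Nr4a1 was lower there, by -0.96 to -0.64, and 11 of the 12 called it.

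Markers of the cells in the tissue were read beside these results. Of the hippocampal neuron markers Neurod6, Zbtb20, Fibcd1 and C1ql2 were above background on all 14 arrays, and Prox1 was not tested. In TBI vs. Sham the astrocyte gene Gfap (1.88), the leukocyte genes Ptprc (1.55), S100a8 (3.33) and S100a9 (4.0), the endothelial Cldn5 (0.63), the microglial Itgam (1.05) and the thalamic Prkcd (1.21) were higher and the neuronal Syt1 was lower (-0.67), while none of 4 hippocampal neuron, 5 oligodendrocyte or 2 choroid plexus markers was called. S100a8 was above background on 1 of 2 Sham arrays and Syt1 on 2 of 3 TBI arrays. As counts, 1 of 5 astrocyte, 3 of 5 blood and leukocyte, 1 of 3 endothelial, 1 of 5 microglial, 1 of 2 thalamic and 1 of 5 neuronal markers were called, in all 8 of 36 against 16.6% of probes. Against Sham, 11, 7 and 5 of the 36 were called in TBI+Imipramine, TBI+Prozac and TBI+Zoloft, against 23.4%, 14.9% and 5.95% of probes. No marker was called by limma in any drug group vs. TBI, against 2.85%, 0.00577% and 1.38% of probes in the same order. There 5 of the 36 had an unadjusted p under 0.05 in each, against 19.7%, 10.1% and 15.2%. Between the drugs, 2 were called in TBI+Imipramine vs. TBI+Zoloft and 3 in TBI+Prozac vs. TBI+Zoloft, against 5.29% and 3.69%. Rbfox3, Hba-a2 and Tcf7l2 were not analysed here. The summed linear level of the microglial markers was 2.731 to 3.819 in Sham and 4.566 to 5.35 in TBI, that of the blood and leukocyte markers 10.25 to 13.96 and 8.839 to 10.91, and that of the endothelial markers 0.7194 to 0.7318 and 1.066 to 1.237. The brightest probe weighs most in such a sum. For blood and leukocytes it was Hbb, at 3.32 and 3.77 in Sham and 2.92 to 3.33 in TBI, so that sum hides the rise of Ptprc, S100a8 and S100a9. For microglia it was Aif1, at 0.91 and 1.69 in Sham and 1.91 to 2.13 in TBI. The hippocampal neuron markers summed to 5.821 to 6.691 in Sham, 5.134 to 5.799 in TBI, 4.811 to 5.273 in TBI+Imipramine, 5.975 to 6.456 in TBI+Prozac and 4.032 to 4.354 in TBI+Zoloft. The sum of the choroid plexus markers, Ttr and Folr1, varied from 0.1962 to 104.5 between arrays and overlapped across all groups. These shifts accompanied the Per3, Usp2, Timeless, Tsc22d3 and Nr4a1 differences in TBI vs. Sham. They also accompanied the Per2, Per3, Usp2, Nampt, Timeless, Tsc22d3, Crem and Nr4a1 differences of the drug groups vs. Sham. The part of these shifts in those differences was not tested.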

How the data were processed

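Agilent single-dye gene expression arrays for rat carried hippocampal RNA, 1 of 14 rats on each. Per the file headers, the deposited intensity values are background-subtracted processed signals from Agilent Feature Extraction 11.5.1.1, with flags, also deposited, for spots above background, saturated or outlying. No member spot was saturated. The series table of the authors' processed intensities, as deposited and then taken as log2, served as an alternative.

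Outlier spots were left out and the spots of a probe averaged as log2. A probe was above background on an array when over 0.5 of its spots were. Values were divided, array by array, by the 75th percentile over the probes detected there, as in the study's methods. Probes were kept if some group had them above background throughout (17322 of 30367). The gene value was the brightest kept probe. All comparisons came from 1 fit over the 5 groups in limma 3.58.1 (R 4.3.3), two-sided, with Benjamini-Hochberg adjustment over all kept probes, after tests on simulated data. Tables and plots used Python 3.11.15, pandas 2.3.3 and matplotlib 3.10.9. Accessions were named through the RefSeq gene table for 18643 probes. The number of arrays limits the precision.

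The methods' t-test was an alternative, as were normexp background correction (offset 50, on median signals), other scalings, filters, blocks and leaving out each array. Replicate numbers name separate rats. The members and all gene lists were chosen with earlier results of these data known. Genes named beyond the 10 members were those of the lists past the threshold, up to 4 per list with the largest differences, and those most like Dbp. The microRNA arrays of the same rats were not used here.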

Additional observations from a re-analysis of the deposited data

How the results depend on the processing

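No difference of a clock gene changed direction past the threshold under any alternative. The number of clock genes called in TBI vs. Sham was 1 as reported, 2 under quantile normalization, a percentile over all probes or the series table (Per2 joined), and 0 under the methods' t-test after Benjamini-Hochberg adjustment. Calls over all 17322 probes rose as well under those 3 scalings, from 2879 as reported to 4329, 4446 and 4392. The adjusted t-test called 0 probes of any kind there. With those 3 scalings the clock genes called were 1 for TBI+Zoloft vs. TBI, 2 for TBI+Prozac vs. Sham, 1 for TBI+Zoloft vs. Sham and 2 for the 4 injured groups vs. Sham. In the same order, calls over all probes were 755 to 824, 3256 to 3548, 2062 to 2118 and 5054 to 5153. As reported they were 239, 2579, 1031 and 3539. For TBI+Imipramine vs. Sham the clock genes called were 2 as reported, 1 with no filter, with outlier spots kept or with a replicate block, 0 under the adjusted t-test and 3 under the unadjusted one, where Bhlhe40 (0.28) joined. In the same order, calls over all probes were 4046, 2917, 4038, 3319, 1111 and 5694. For TBI+Prozac vs. Sham the number of clock genes called was 0 with no filter or the adjusted t-test, which called 1504 and 1 of all probes. For TBI+Zoloft vs. TBI that number was 0 as reported and 1 with the replicate block, slide as a random block, or probes above background on all 14 arrays. Those 3 settings called 252, 703 and 197 of all probes. The unadjusted t-test with its fold limit of 1.2 called 1 clock gene in each drug group vs. TBI and in 2 drug pairs. Of all probes it called 2438, 1091 and 1406 for TBI+Imipramine, TBI+Prozac and TBI+Zoloft vs. TBI. In those pairs, TBI+Imipramine vs. TBI+Prozac and vs. TBI+Zoloft, it called 989 and 3047. A fixed slide block was not run against Sham.

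Other clock pathway genes called in TBI vs. Sham fell from 2 to 1 with normexp, no filter, the filter on all arrays or the series table, and to 0 under the adjusted t-test. For TBI+Imipramine vs. TBI they went from 1 to 0 under normexp, the 3 scalings, no filter, either the replicate block or the fixed slide block, and the adjusted t-test, and to 4 under the unadjusted t-test, which gave 3 for TBI+Prozac. Glucocorticoid targets in TBI vs. Sham were 0 and 2 under the adjusted and unadjusted t-test, and in TBI+Zoloft vs. TBI 1 with normexp or the random slide block. Activity targets in TBI vs. Sham were 0 and 3 under the same t-tests, and under the unadjusted one 1, 3 and 1 for TBI+Imipramine, TBI+Prozac and TBI+Zoloft vs. TBI. Over all probes, TBI vs. Sham gave 2887 calls with normexp, 1916 with no filter, 2177 with the filter on all arrays and 4392 in the series table. The adjusted and unadjusted t-tests gave 0 and 3031 there. TBI+Imipramine vs. TBI gave 363 with normexp, 56 to 58 under the 3 scalings and 283 with no filter. The replicate block, fixed slide block and adjusted t-test gave 384, 2 and 27. TBI+Zoloft vs. TBI gave 237 with normexp and 703 with the random slide block. The cause of these moves was not tested.

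Leaving out 1 array at a time, the clock genes called were 1 to 1 in TBI vs. Sham, 0 to 2 in TBI+Imipramine vs. Sham, 0 to 1 in TBI+Prozac vs. Sham and the 4 injured groups vs. Sham, and 0 to 0 elsewhere. Other pathway genes were 0 to 3 in TBI vs. Sham and 0 to 1 in TBI+Imipramine vs. TBI. Glucocorticoid targets were 0 to 2 in TBI vs. Sham and 0 to 1 in TBI+Zoloft vs. TBI, and activity targets 1 to 4 in TBI vs. Sham, with 0 to 0 in the other comparisons with TBI.

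Of 26 same-numbered pairs of arrays, 2 had deviations from their group means correlated over 0.1 (range -0.23 to 0.23). With 2 or 3 arrays a group, these deviations are tied to each other and cannot exclude a pairing. The sample titles give each array its own animal number. Over all probes, calls in TBI vs. Sham were 2879 as reported, 4446 with the percentile over all probes and 1916 with no filter. In TBI+Zoloft vs. TBI they were 239, 824 and 22, and in TBI+Imipramine vs. TBI 494, 58 and 283. With 2 or 3 rats a group, uncalled differences are bounded only by their intervals. Per1 and Nr1d2 were above background on no array, and Clock on 5 of 14.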

Other observations

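The 5 probes whose levels followed the brightest Dbp probe most closely, of 11864 named probes ranked by Pearson r over the 14 arrays, belonged to Slco1a4 (0.96), a transporter of the blood-brain barrier, Nat8f5 (0.94), Gpr37l1 (0.92), an astrocyte receptor, Nim1k (0.92) and Grm3 (0.92), a glutamate receptor gene. The 3 most opposed belonged to Snai1 (-0.90), Sdcbp2 (-0.90) and Eln (-0.87), the elastin gene. These are descriptions over arrays that share TBI+Zoloft replicate 3, where Dbp was lowest. Without that array r was 0.84 for Slco1a4, 0.75 for Nat8f5, 0.70 for Gpr37l1, 0.83 for Nim1k and 0.68 for Grm3, and -0.58, -0.47 and -0.48 for Snai1, Sdcbp2 and Eln. They were then no longer the closest or most opposed. Their ranks in the same order were 36, 229, 530, 39 and 618 from the top, and 37, 191 and 173 from the bottom.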
